A study of Homo sapiens with 9 samples.

Results

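The Frizzled receptor family is the set of seven-pass membrane receptors that bind WNT ligands through a cysteine-rich domain outside the cell. All 10 human genes of the family, *FZD1* to *FZD10*, were found by symbol among the 36601 genes counted in both libraries of this study. The members were described in human extra-embryoids (hEEs), aggregates of pluripotent cells formed in microwells in a spontaneous differentiation medium. A ROCK inhibitor was present on the first day, and before D4 the medium was changed to a modified in vitro culture medium. The hEEs were grown from ESI017, an established human embryonic stem cell line of wild-type genotype that received no treatment beyond its culture media. Before aggregation the line was kept on mouse feeder cells in expanded potential medium. Per the methods of the study, a WNT inhibitor and a ROCK inhibitor were added to that medium. Structures with a visible inner and outer compartment were picked and pooled on D4 and on D6, dissociated and profiled with the Chromium 3′ platform, so that each day is 1 library. Day and library cannot be told apart, no test between samples could be run, and square brackets give 95% intervals for the error of counting alone.

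WNT binding brings a Frizzled receptor together with the co-receptor *LRP5* or *LRP6*, which stabilises β-catenin and activates target genes through TCF and LEF factors, whereas other Frizzled complexes act on planar cell polarity and calcium. By sequence, *FZD1*, *FZD2* and *FZD7* form one subfamily, *FZD5* and *FZD8* another, and *FZD3* and *FZD6* as well as *FZD4*, *FZD9* and *FZD10* the remaining ones. In the early embryo, WNT signals take part in the formation of the primitive streak, and the anterior visceral endoderm (AVE), a region of the hypoblast, secretes antagonists of WNT, NODAL and BMP.

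Cells were kept when they held 3430 to 27500 unique molecular identifiers (UMIs, each standing for 1 captured transcript) and at most 10% mitochondrial UMIs, which left 9151 cells at D4 and 10097 at D6. The embryonic gate took cells with at least 5 UMIs of *POU5F1*, at least 1 of *SOX2* and at most 2 of *FN1*, and held 3716 cells at D4 and 5054 at D6. Of these, 81 and 350 had at least 2 UMIs of *TFAP2A*, a gene of the amnion, and are called TFAP2A+ cells. The hypoblast gate took cells with at least 3 UMIs of *FN1*, none of *SOX2* and at most 5 of *POU5F1*, and held 4061 and 3567 cells. Of these, 558 and 116 had at least 2 UMIs of *CER1*, an AVE antagonist, and are called CER1+ cells. The median depth was 15158 and 14226 UMIs per cell in the embryonic gate at D4 and D6, against 11012 and 10902 in the hypoblast gate.

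Genes that did not set the gates bore on their names. All 7 hypoblast markers compared were at least 2-fold higher in the hypoblast gate on both days, and of 6 embryonic markers *UTF1*, *SALL2*, *DNMT3B* and *L1TD1* were at least 2-fold lower there, while *TDGF1* and *LIN28A* were not. Of 5 AVE markers, *LEFTY1*, *LEFTY2*, *SHISA2* and *GSC* were at least 2-fold higher in CER1+ cells than in the rest of their gate on both days. TFAP2A+ cells had no UMI of *ISL1* at D4 and 5.06 CPM at D6. Of 4 amnion markers compared at D4, *MSX2* and *GATA3* were at least 2-fold higher in them than in the rest of their gate. At D6, 5 of 6 amnion markers were. None of the 6 embryonic markers was at least 2-fold lower in TFAP2A+ cells on either day. *ISL1*, *MSX2* and *GATA3* were also at least 2-fold higher in the hypoblast gate than in the embryonic gate on both days. So were *TBXT*, *MIXL1* and *HAND1* of 4 primitive streak and mesoderm markers compared at D4, and all 5 compared at D6. That list summed to 33.6 CPM in the hypoblast gate and 3.75 in the embryonic gate at D4, and to 104.6 and 7.19 at D6. The part of cells with these markers in the hypoblast gate was not tested. Trophoblast markers were nearly absent, since none of the 8 reached the 50 UMIs needed for a comparison between the gates. The libraries shared 27 barcodes among kept cells, and no doublet caller was run.

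A level is given in CPM, the UMIs of a gene per 1000000 UMIs of a gate. Because the 3′ assay yields at most 1 UMI for each captured transcript whatever its length, levels of different members were compared without division by gene length. How well each gene is captured was not measured, and the intervals do not cover it, so orders and shares of members are of UMIs. In the embryonic gate the order of levels was *FZD7*, *FZD3*, *FZD2*, *FZD5* and *FZD8* at D4, and *FZD7*, *FZD3*, *FZD5*, *FZD2* and *FZD8* at D6, with *FZD6*, *FZD4*, *FZD9*, *FZD1* and *FZD10* below them on both days. *FZD3* and *FZD2* had overlapping intervals at D4, at 46.8 [45.0, 48.6] and 46.1 [44.3, 47.8] CPM, and so did *FZD6* and *FZD4*, at 4.76 [4.21, 5.36] and 4.10 [3.60, 4.66]. The intervals of *FZD9* and *FZD1* also overlapped at D4, at 2.13 [1.77, 2.54] and 1.68 [1.36, 2.05] CPM. At D6 those of *FZD4* and *FZD9* did, at 3.78 [3.35, 4.25] and 3.43 [3.03, 3.88]. In the hypoblast gate *FZD5* came first, *FZD7* second and *FZD4* next on both days, followed by *FZD3*, *FZD8*, *FZD2*, *FZD6*, *FZD1*, *FZD9* and *FZD10*. There *FZD3* and *FZD8* had overlapping intervals at D4, at 25.4 [24.0, 26.8] and 25.0 [23.6, 26.4] CPM, and *FZD1* and *FZD9* at D6, at 2.32 [1.88, 2.83] and 1.65 [1.29, 2.09].

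**Figure D1:**
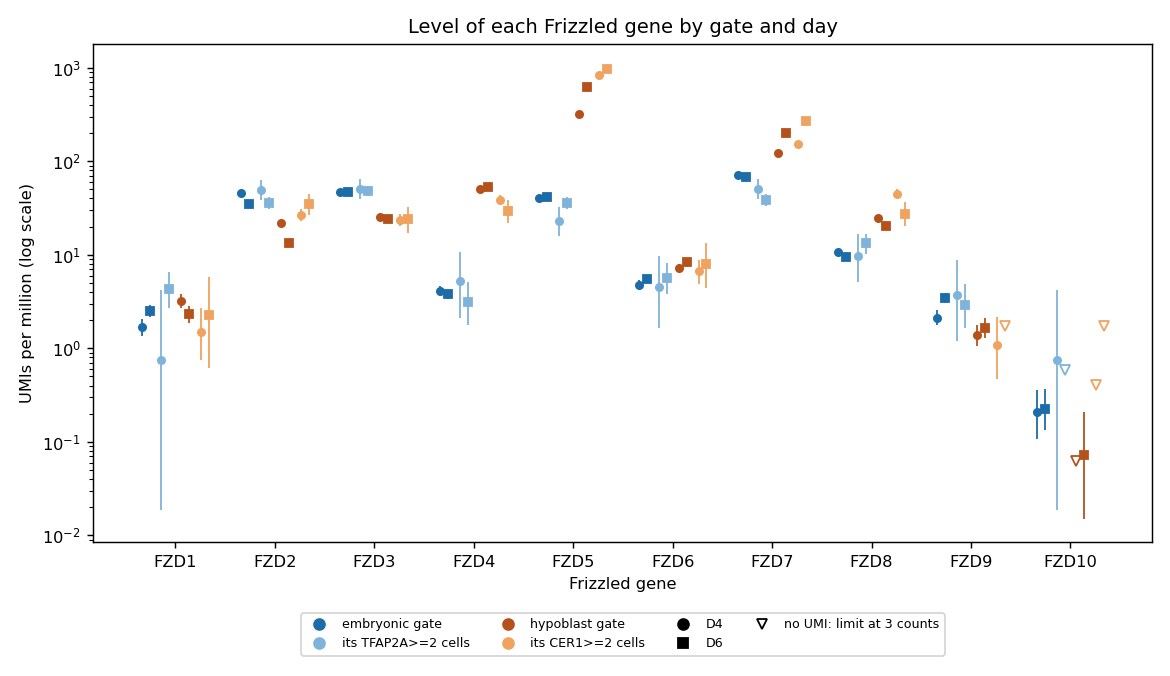
Level of each Frizzled gene in CPM (UMIs per 1000000 UMIs, log scale) in the embryonic gate, its TFAP2A+ cells, the hypoblast gate and its CER1+ cells, with circles for D4, squares for D6 and exact 95% Poisson intervals, where open triangles mark the limit of 3 counts where no UMI was found. *FZD5* reached 844 CPM in CER1+ cells of D4 and 981 in those of D6, against 40.7 and 41.7 in the embryonic gate.

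All Frizzled UMIs together made up 228 [224, 232] CPM in the embryonic gate at D4 and 217 [214, 220] at D6. In the hypoblast gate they made up 579 [572, 586] and 947 [937, 956] CPM. Without *FZD5* the sums were 188 and 175 CPM in the embryonic gate and 256 and 323 in the hypoblast gate. *FZD5* alone held 17.8% [17.2, 18.5] and 19.2% [18.6, 19.9] of Frizzled UMIs in the embryonic gate, against 55.7% [55.2, 56.3] and 65.8% [65.4, 66.3] in the hypoblast gate and 74.0% and 71.4% in its CER1+ cells. In TFAP2A+ cells of D4 no member stood out, with *FZD3* and *FZD7* at 25.6% each and *FZD2* at 24.8% of 266 Frizzled UMIs. In those of D6 *FZD3* came first, at 25.7% [22.9, 28.5] of 970 Frizzled UMIs. *FZD7* followed at 20.5% [18.0, 23.2], an interval that overlaps, and *FZD2* and *FZD5* at 19.2% [16.7, 21.8] each.

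**Figure D2:**
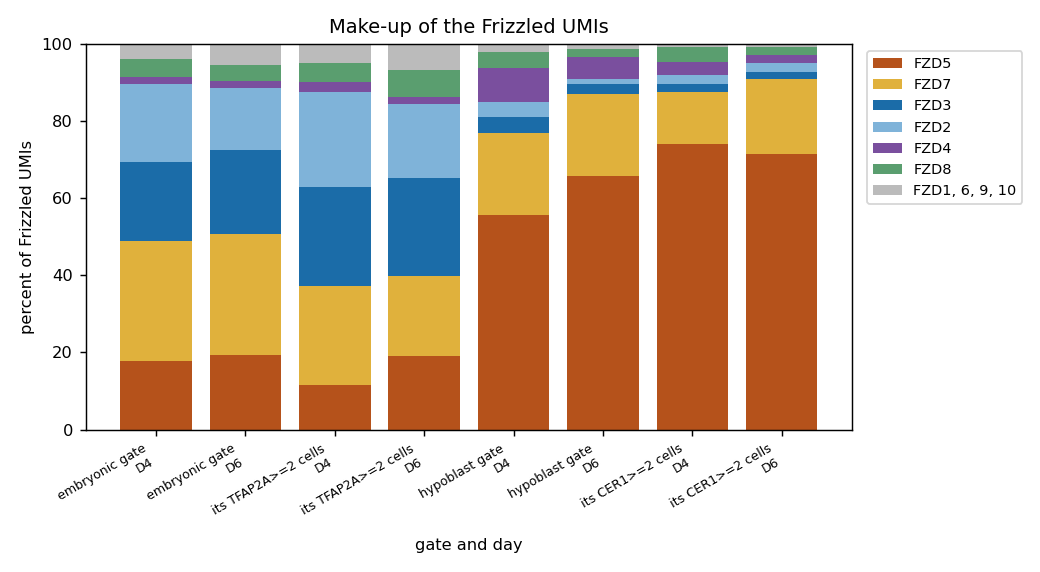
Share of each Frizzled gene among all Frizzled UMIs, in percent, for the 4 gates on D4 and D6, with *FZD1*, *FZD6*, *FZD9* and *FZD10* summed. *FZD5* took 17.8% and 19.2% in the embryonic gate and 55.7% and 65.8% in the hypoblast gate.

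The first comparison asked which receptors differ between the cells of the 2 gates. A gene was compared when it had at least 50 UMIs over both gates and was called when its levels differed at least 2-fold. Of the 9 members compared at D4, 3 were higher in the hypoblast gate (*FZD4*, *FZD5* and *FZD8*) and 1 was lower (*FZD2*), where 26.1% of all genes compared were called. Of 9 compared at D6, 4 were higher (*FZD4*, *FZD5*, *FZD7* and *FZD8*) and 2 lower (*FZD2* and *FZD9*), with 31.8% of all genes called. The members called were a larger share than these on both days, though of 9 genes. The median log2 ratio was 0.78 and 0.60 over the members, against −0.04 and −0.14 over all genes compared. Relative to that shift at D6, *FZD9* was no longer called and the other 5 were.

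The subfamily of *FZD5* and *FZD8* was higher in the hypoblast gate. *FZD5*, a receptor studied in the development of eye and gut, was at 40.7 [39.1, 42.4] CPM in the embryonic gate and 323 [318, 328] in the hypoblast gate at D4, a 7.92-fold difference. At D6 it was at 41.7 [40.3, 43.2] and 623 [616, 631] CPM, a 14.9-fold difference. The intervals of the gates were far apart on both days. *FZD8*, whose cysteine-rich domain is known in complex with a WNT ligand, was at 10.7 [9.88, 11.6] and 25.0 [23.6, 26.4] CPM at D4 and 9.38 [8.70, 10.1] and 20.2 [18.8, 21.6] at D6. Its folds of 2.33 and 2.15 lay close to the 2-fold limit, and the call was lost at D4 without the CER1+ cells and at D6 when mitochondrial and ribosomal protein genes were left out of the scaling.

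*FZD4*, which also binds the non-WNT ligand Norrin, had the largest ratio of the members at D4. It was at 4.10 [3.60, 4.66] CPM in the embryonic gate and 50.5 [48.5, 52.6] in the hypoblast gate at D4, and at 3.78 [3.35, 4.25] and 52.6 [50.4, 54.8] at D6. These are folds of 12.3 and 13.9. *FZD4-DT*, annotated as a divergent transcript of *FZD4* and counted as a gene of its own, was at 0.36 and 2.30 CPM at D4 and 0.52 and 1.68 at D6, so that it too was lower in the embryonic gate. *TSPAN12*, the tetraspanin that acts with *FZD4* as a Norrin co-receptor, was at 10.9 CPM in the embryonic gate and 59.5 in the hypoblast gate at D4, and at 9.89 and 68.7 at D6.

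The members lie on 7 chromosomes, with *FZD1* and *FZD9* on chromosome 7 and *FZD5* and *FZD7* on chromosome 2. In GRCh38.p14 as given by RefSeq, *FZD5* spans chr2:207762598-207769906, *FZD7* chr2:202033855-202038441, *FZD4* chr11:86945679-86955395, *FZD8* chr10:35638247-35642296 and *FZD2* chr17:44557484-44561262. RefSeq promoters were at hand for 5 of the 10 members. The 250 bases before the start are shown for the 3 members that were called as higher in the hypoblast gate on both days. They are read 5′ to 3′ on the strand of the gene, with any match to the 4 motifs searched in capitals. They come from the minus strand at chr2:207769907-207770156 for *FZD5*, chr10:35642297-35642546 for *FZD8* and chr11:86955396-86955645 for *FZD4*.
FZD5: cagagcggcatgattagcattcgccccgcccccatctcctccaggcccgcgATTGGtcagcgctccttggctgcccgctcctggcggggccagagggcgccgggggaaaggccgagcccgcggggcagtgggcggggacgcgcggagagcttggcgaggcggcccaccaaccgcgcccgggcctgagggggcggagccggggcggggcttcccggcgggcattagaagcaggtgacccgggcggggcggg
FZD8: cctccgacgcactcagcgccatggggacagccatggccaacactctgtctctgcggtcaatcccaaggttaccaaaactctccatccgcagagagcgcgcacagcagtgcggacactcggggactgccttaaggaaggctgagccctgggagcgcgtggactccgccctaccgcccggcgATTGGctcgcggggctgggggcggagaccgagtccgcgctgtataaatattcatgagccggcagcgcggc
FZD4: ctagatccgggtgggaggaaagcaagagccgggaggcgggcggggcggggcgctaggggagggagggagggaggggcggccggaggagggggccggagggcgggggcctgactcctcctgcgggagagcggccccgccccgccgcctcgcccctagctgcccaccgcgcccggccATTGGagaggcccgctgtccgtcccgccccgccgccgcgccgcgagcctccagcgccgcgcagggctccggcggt

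The motifs were CTTTGA for TCF and LEF factors, AGATAA for GATA factors, TGTTTAC for FOXA factors and CCAAT, each on both strands, and the motifs were chosen after the sequences had been seen. None of the first 3 was found in the promoters of *FZD1*, *FZD4*, *FZD5*, *FZD8* and *FZD9*, whereas 11.2%, 9.17% and 2.98% of 35116 promoters of this length held them. CCAAT was found on the opposite strand in *FZD1*, *FZD4*, *FZD5* and *FZD8*, and in 32.0% of all promoters. The promoters were rich in CG, with 30 CG dinucleotides for *FZD5*, 24 for *FZD8* and 33 for *FZD4* against a median of 11. They also held more G and C than the median of 58%, at 76.8%, 65.2% and 80.8%. Those of *FZD1* and *FZD9* lay above these medians too, with 19 and 23 CG dinucleotides and 65.2% and 72.4% G and C. A match is a description of letters and not of a site in use.

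The other members of the *FZD4* subfamily were scarce. *FZD9*, which lies in the region deleted in Williams syndrome, was at 2.13 [1.77, 2.54] CPM in the embryonic gate and 1.38 [1.07, 1.76] in the hypoblast gate at D4, and at 3.43 [3.03, 3.88] and 1.65 [1.29, 2.09] at D6. *FZD10*, known from synovial sarcoma, had 12 UMIs in the embryonic gate and none in the 4061 cells of the hypoblast gate at D4, and the interval of its log2 ratio lay below −1.20. At D6 it had 17 and 3 UMIs, a log2 ratio of −1.66 [−4.07, 0.13]. With under 50 UMIs *FZD10* was compared on neither day.

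*FZD7*, *FZD2* and *FZD1*, which share a subfamily, differed in direction. *FZD7*, known as a WNT receptor of human pluripotent cells, was the most abundant member of the embryonic gate, at 71.1 [68.9, 73.3] CPM at D4 and 68.1 [66.3, 70.0] at D6. In the hypoblast gate it was at 122 [119, 125] and 201 [196, 205] CPM, 1.71-fold and 2.95-fold higher. *FZD2*, a receptor in WNT5A and *ROR2* signalling, went the other way, from 46.1 [44.3, 47.8] to 21.7 [20.4, 23.1] CPM at D4 and from 34.9 [33.6, 36.3] to 13.4 [12.3, 14.6] at D6, which is 2.12-fold and 2.60-fold lower in the hypoblast gate. *FZD1*, a close relative of *FZD7*, was at 1.68 [1.36, 2.05] and 3.22 [2.73, 3.77] CPM at D4 and at 2.53 [2.18, 2.91] and 2.32 [1.88, 2.83] at D6, and was not called on either day.

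*FZD3* and *FZD6* act in planar cell polarity, *FZD3* in axon guidance and both in neural tube closure. *FZD3* was at 46.8 [45.0, 48.6] CPM in the embryonic gate and 25.4 [24.0, 26.8] in the hypoblast gate at D4, and at 47.3 [45.7, 48.8] and 24.3 [22.9, 25.9] at D6. Its folds of 1.84 and 1.94 in favour of the embryonic gate stayed below the limit. *FZD6* was at 4.76 [4.21, 5.36] and 7.17 [6.43, 7.97] CPM at D4 and 5.47 [4.95, 6.02] and 8.31 [7.46, 9.23] at D6, higher in the hypoblast gate by 1.51-fold and 1.52-fold. The pair therefore differed in direction, with intervals of both ratios apart from 0 on both days.

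**Figure D3:**
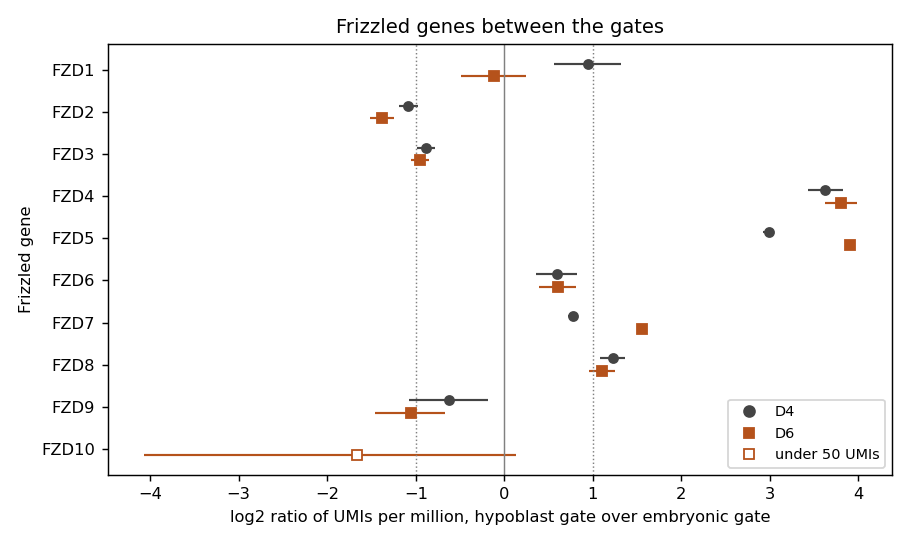
Log2 ratio of CPM, hypoblast gate over embryonic gate, for each Frizzled gene at D4 (circles) and D6 (squares), with exact conditional 95% intervals, where dotted lines mark a 2-fold difference, the open square has under 50 UMIs, and *FZD10* at D4 is left out because the hypoblast gate held none. *FZD5* and *FZD4* stand farthest to the right, with log2 ratios of 2.99 and 3.62 at D4.

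Low levels in the embryonic gate were set beside those of genes that mark the hypoblast gate. In the embryonic gate *FZD5* stood at 12.6% of its hypoblast level at D4 and at 6.70% at D6, and *FZD4* at 8.12% and 7.19%. The same share was 1.28% and 0.752% for *APOA1*, 1.40% and 0.980% for *GATA6* and 2.60% and 0.884% for *FOXA2*, but 12.1% and 13.5% for *SOX17* and 10.5% and 6.74% for *COL4A1*. In embryonic cells without a UMI of *APOA1*, *FN1* or *SOX17*, an alternative chosen after the data were seen, *FZD5* was at 35.3 CPM in 1983 cells at D4 and 35.6 in 1231 cells at D6. *FZD4* was at 3.05 and 3.59 CPM in the same cells. The part of free RNA in the embryonic levels of either gene was not tested.

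Shares of cells with a UMI depend on depth, so each cell was also thinned to 3430 UMIs. At this depth *FZD5* was seen in 12.2% [11.2, 13.3] of embryonic cells at D4 and 12.2% [11.3, 13.1] at D6, and in 45.5% [44.0, 47.1] and 65.8% [64.3, 67.4] of hypoblast cells. With all UMIs the shares were 42.1% and 39.1% against 70.3% and 83.0%. *FZD7* was seen at equal depth in 20.4% and 19.3% of embryonic cells and 32.4% and 46.3% of hypoblast cells, and with all UMIs in 59.9% and 54.5% against 68.0% and 81.9%. For *FZD4* the shares at equal depth were 1.34% and 1.26% against 15.7% and 16.3%, and with all UMIs 6.05% and 5.40% against 42.0% and 41.1%.

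**Figure D4:**
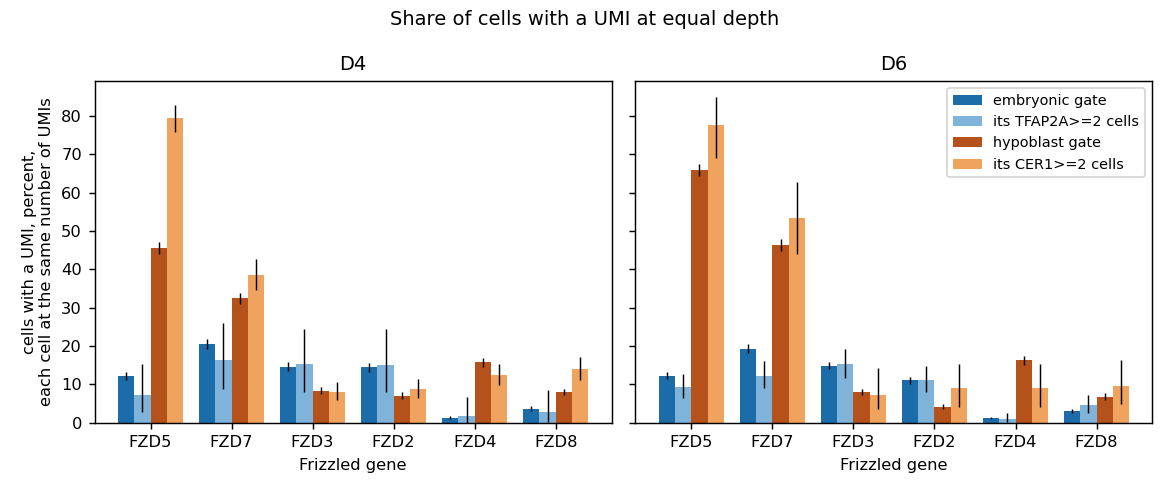
Percent of cells with a UMI of 6 Frizzled genes after each cell was thinned to 3430 UMIs, by gate, for D4 and D6, with exact 95% binomial intervals. *FZD5* was seen in 79.4% of CER1+ cells at D4 and 77.7% at D6, against 12.2% of embryonic cells on both days.

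At equal depth a cell of the embryonic gate showed a mean of 0.675 members at D4 and 0.654 at D6, and a cell of the hypoblast gate 1.21 and 1.52. No member was seen in 48.8% and 50.2% of embryonic cells, against 25.1% and 13.3% of hypoblast cells. At least 2 members were seen in 35.3% and 50.3% of hypoblast cells, against 13.2% of embryonic cells at D6. In the hypoblast gate *FZD7* was seen in 34.8% of cells with *FZD5* and 30.1% of those without at D4, and in 49.9% and 40.2% at D6, which describes the thinned cells of 1 library each.

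The second comparison asked how the receptors vary within the hypoblast gate with *CER1*. In CER1+ cells of D4, *FZD5* was at 844 [823, 865] CPM against 228 in the rest of the gate, a 3.71-fold difference. *FZD8* was at 44.8 [40.1, 49.9] against 21.4 CPM, and *FZD1* at 1.49 against 3.54 with 11 UMIs in CER1+ cells. These were the 3 members called of 9 compared, where 3.96% of all genes were called. *FZD8* lay close to the limit, at 2.10-fold, and was called under 12 of 14 settings, while *FZD5* was called under all 14. *FZD7* was at 154 [145, 163] against 116 CPM and *FZD4* at 38.9 [34.5, 43.7] against 52.7, neither being called.

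At D6 only *FZD2* was called among the 9 members compared between the 116 CER1+ cells and the rest, with 9.27% of all genes called. *FZD2* was at 34.8 [26.6, 44.7] CPM in CER1+ cells and 12.5 in the rest, a log2 ratio of 1.48 [1.07, 1.86]. Genes of primitive streak and mesoderm moved with it, since *MESP1* was at 59.4 against 2.72 CPM, *HAND1* at 56.5 against 9.10 and *MIXL1* at 202 against 78.8, which is 3 of the 4 markers compared of a list of 6. The list summed to 322 CPM in CER1+ cells and 95.1 in the rest, and *APOA1* and *APOA2* of the 7 hypoblast markers were at least 2-fold lower in CER1+ cells. An alternative added after the data were seen kept the 87 CER1+ cells with no UMI of *HAND1* or *MESP1*. There *FZD2* had 24 UMIs, at 18.9 CPM, its log2 ratio was 0.71 and it was no longer called. The part of cells with *HAND1* or *MESP1* in the level of *FZD2* was not tested. *FZD5* was at 1205 CPM in these 87 cells, with a log2 ratio of 0.98, against 981 [935, 1029] in all CER1+ cells and 608 in the rest. With at least 5 UMIs of *LEFTY1* in place of *CER1*, the log2 ratio of *FZD5* was 2.09 at D4 and 1.08 at D6, and that of *FZD2* was 0.15 and −0.09.

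Along the number of *CER1* UMIs in a cell of D4, *FZD5* was at 207 [202, 212] CPM with none, 389 [372, 408] with 1, 550 [523, 578] with 2 to 4, 748 [703, 796] with 5 to 9 and 1155 [1118, 1194] with 10 or more. The level was higher at each step, and no interval overlapped that of the next group, though these intervals leave out the spread between cells. At D6 it was at 597 [589, 605] with none, 945 [892, 1001] with 1, 1059 [989, 1133] with 2 to 4, 1115 [1011, 1227] with 5 to 9 and 786 [715, 861] with 10 or more, so that the last group lay below the 3 before it. *FZD8* at D4 was between 19.4 and 30.5 CPM up to 9 UMIs of *CER1* and at 70.7 [61.7, 80.6] with 10 or more. *FZD4* was lower in the last group than without *CER1*, from 52.8 [50.5, 55.2] to 33.1 [27.1, 40.1] CPM at D4 and from 53.9 [51.6, 56.3] to 20.8 [10.7, 36.3] at D6. *APOA1*, a marker of the wider hypoblast, was also lower at the far end, at 1709 against 967 CPM at D4 and 12321 against 3276 at D6, and its part in these values was not tested. CER1+ cells of D6 with *HAND1* or *MESP1* were not set apart in these groups. Without them *FZD5* was at 1205 CPM in 87 CER1+ cells, against 981 in all CER1+ cells of D6. Their part in the lower last group was not tested.

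**Figure D5:**
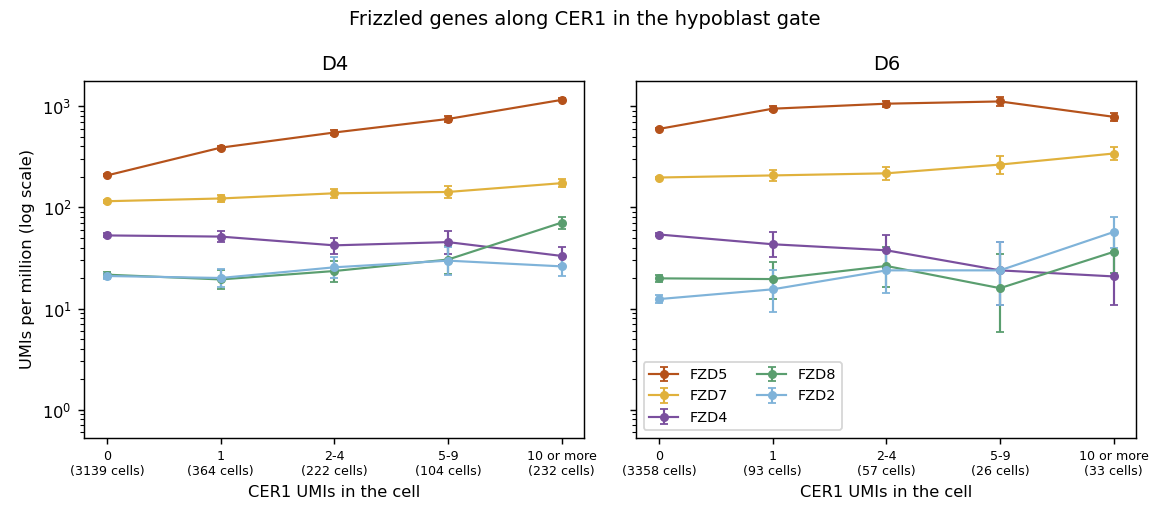
CPM (UMIs per 1000000 UMIs, log scale) of 5 Frizzled genes in cells of the hypoblast gate grouped by their *CER1* UMIs, at D4 (left) and D6 (right), with exact 95% Poisson intervals and the number of cells under each group. At D4 *FZD5* was higher in each further group, from 207 to 1155 CPM, and at D6 it was lower in the last group, at 786. Cells with *HAND1* or *MESP1* were not set apart.

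CER1+ cells with at least 2 UMIs of *NPPB* were set beside those with none. At D4 *FZD5* was at 825 [791, 859] CPM in 184 such cells and 897 [868, 928] in 319 cells without. At D6 the order was the reverse, at 1183 [1107, 1262] in 47 cells and 813 [755, 874] in 64, while *FZD7* was at 218 [186, 254] and 307 [272, 346]. *FZD3*, *FZD4* and *FZD8* had overlapping intervals in these groups on both days, and *FZD2* was at 47.0 [32.9, 65.1] and 21.0 [12.6, 32.8] CPM at D6.

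The third comparison asked how the receptors vary within the embryonic gate with *TFAP2A*. At D4, 1 of 9 members compared was called, with 7.22% of all genes called, a share close to it, and the member was *FZD1*, which rested on 1 UMI in the 81 TFAP2A+ cells. At D6 none of 9 members was called, with 4.77% of all genes called. *FZD7* was nevertheless lower in TFAP2A+ cells by its interval, at 50.7 against 71.6 CPM at D4 with a log2 ratio of −0.50 [−0.86, −0.15], and at 38.8 against 70.3 at D6 with −0.86 [−1.07, −0.65]. *FZD5* was at 23.1 against 41.1 CPM at D4, a log2 ratio of −0.83 [−1.39, −0.32], and at 36.2 against 42.1 at D6. Some markers of hypoblast and AVE were also lower at D4. *APOA1* and *APOA2* of 7 hypoblast markers were at least 2-fold lower in TFAP2A+ cells, with 14 and 2 UMIs there. So were *LEFTY1* and *LEFTY2* of 4 AVE markers compared. Others were higher in TFAP2A+ cells, with *SOX17* at 14.2 against 11.2 CPM, *GATA4* at 1.49 against 1.28 and *COL4A1* at 55.2 against 52.1. *HHEX* of the AVE list was at 11.9 against 6.27 CPM. The median log2 ratio of the hypoblast list was 0. The hypoblast list summed to 82.8 CPM in TFAP2A+ cells and 96.6 in the rest and the AVE list to 20.9 and 163, *GATA6* and *FOXA2* had no UMI in TFAP2A+ cells, and the part of these markers in the result was not tested.

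Along *TFAP2A* at D6, *FZD7* was at 72.2 [70.1, 74.3] CPM in cells without a UMI, 44.8 [39.0, 51.2] with 1, 38.7 [33.0, 45.1] with 2 to 4 and 39.0 [27.5, 53.8] with 5 or more. The intervals of counting error were apart between none and 1, and those of the later groups overlapped. *FZD3* was at 47.4 [45.8, 49.2] CPM with none and 55.9 [41.9, 73.1] with 5 or more, while *FZD8* was at 10.3 [7.66, 13.6] with 1 and 21.1 [12.9, 32.6] with 5 or more. The 18 TFAP2A+ cells of D6 with an *ISL1* UMI had 18.6 [6.84, 40.6] CPM of *FZD5*, an interval that overlaps the 37.4 [32.1, 43.3] in the 332 without.

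The fourth comparison set D6 beside D4. In the embryonic gate no member of 9 was called, with 3.10% of all genes called, and the log2 ratios ran from −0.40 [−0.48, −0.32] for *FZD2* to 0.69 for *FZD9*. In the hypoblast gate no member of 9 was called either, with 7.16% of all genes called, but *FZD5* was just short of the limit at 1.93-fold, from 323 to 623 CPM. Some marker genes moved too in that gate, with *APOA1*, *APOA2* and *GATA6* of 7 hypoblast markers at least 2-fold higher at D6. Of 5 AVE markers *LEFTY2* and *SHISA2* were at least 2-fold lower and the other 3 were not called, with a median log2 ratio of 0.12. All 5 primitive streak and mesoderm markers compared were at least 2-fold higher. The 3 lists summed to 2955, 574 and 33.6 CPM at D4 and 14353, 312 and 104.6 at D6, and their part in the result was not tested. *FZD7* was 1.65-fold higher at D6, while *FZD2* had a log2 ratio of −0.70 [−0.85, −0.55] and *FZD8* of −0.31 [−0.44, −0.18]. In CER1+ cells *FZD5* went from 844 [823, 865] to 981 [935, 1029] CPM, a 1.16-fold difference. In TFAP2A+ cells *FZD5* went from 23.1 [15.7, 32.8] to 36.2 [31.2, 41.8] CPM.

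Cells outside both gates numbered 1374 and 1476. Their levels of *FZD5* and *FZD7* lay between those of the embryonic and hypoblast gates. *FZD5* was at 211 [204, 217] and 299 [292, 307] CPM and *FZD7* at 91.2 [86.9, 95.6] and 128 [123, 133]. Kept cells with at least 3 UMIs of *HAND1* and none of *TFAP2A* or *SOX17*, chosen without regard to the gates, numbered 3 at D4, too few to describe, and 77 at D6. In these 77 cells *FZD7* led, at 262 [233, 295] CPM, followed by *FZD2* at 87.7 [71.0, 107], *FZD5* at 32.3 [22.5, 45.0] and *FZD8* at 29.6 [20.2, 41.7]. The level of *FZD5* there overlapped that of the embryonic gate, and that of *FZD7* overlapped that of CER1+ cells.

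Other genes of the pathway were taken from 7 lists, and counts are of those at least 2-fold apart between the gates, to be read against the 26.1% at D4 and 31.8% at D6 of all genes compared. Of 19 WNT ligands 5 were compared at D4 and 7 at D6, and *WNT3* was higher in the hypoblast gate on both days, with *WNT9B* and *WNT11* at D6, and none was lower. Among 10 co-receptors and alternative receptors compared, 2 were higher at D4 and 3 at D6 and none was lower, shares no larger than those of all genes. *ROR2*, the receptor tyrosine kinase that acts with WNT5A, was at 6.35 and 49.2 CPM in the embryonic and hypoblast gates at D4 and at 7.19 and 52.7 at D6. The co-receptors of the β-catenin branch were not called, with *LRP6* at 41.6 and 72.4 CPM at D4 and 45.2 and 74.6 at D6, and *LRP5* at 9.21 and 9.60 and at 9.11 and 10.9.

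Genes of receptor turnover, which set how much Frizzled protein stays on the membrane, were higher for 3 and lower for 1 of 6 compared at D4, and higher for 2 and lower for 1 at D6. *RSPO3*, a secreted ligand that shields Frizzled from removal, was at 0.69 CPM in the embryonic gate and 68.8 in the hypoblast gate at D4 and at 2.75 and 443 at D6. *LGR5*, its receptor, was at 0.45 and 26.9 and at 0.80 and 57.1. The ligases that remove Frizzled, *RNF43* and *ZNRF3*, were not called, at 1.96 and 3.51 and at 14.2 and 11.7 CPM at D4.

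Secreted antagonists, among them decoys built like the Frizzled binding domain, were higher for 5 and lower for 2 of 9 compared at D4, and higher for 6 and lower for 2 of 10 at D6. *FRZB*, such a decoy, was at 5.78 CPM in the embryonic gate and 170 in the hypoblast gate at D4, and at 4.49 and 147 at D6. *SFRP2*, another decoy, went the opposite way, at 603 and 9.28 CPM at D4 and 436 and 6.39 at D6. *NOTUM*, an enzyme that takes the lipid off WNT ligands, was at 3.01 CPM in the embryonic and 49.4 in the hypoblast gate at D6, and *CER1*, which also divides the hypoblast gate, was at 4.46 and 40.2 on that day.

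Of 4 feedback targets, 3 were higher in the hypoblast gate on both days and none was lower, while *AXIN2* was not called on either day. *SP5*, a transcription factor induced by β-catenin, was at 5.29 and 147 CPM at D4 and 6.98 and 159 at D6. In CER1+ cells of D4, 2 of the 4 were lower than in the rest of the gate and none was higher. They were *NKD1*, at 9.76 against 21.8 CPM, and *TNFRSF19*, at 6.37 against 14.4, where 3.96% of all genes were called. At D6 none of the 4 was called in CER1+ cells, with 9.27% of all genes called. Among 12 cytoplasmic and nuclear genes 1 was higher and 1 lower on each day, a smaller share than that of all genes, and *TCF7L1*, a repressor of WNT targets in pluripotent cells, was at 159 and 67.9 CPM at D4 and 160 and 72.5 at D6. Of 9 planar polarity genes compared, 3 were higher and 1 lower at D4 and 2 higher and 1 lower at D6. Of these *VANGL1*, a membrane protein of the polarity complex, was at 13.6 and 39.7 CPM at D4 and 9.97 and 37.2 at D6, and *DAAM1*, a formin downstream of Frizzled, at 28.7 and 93.5 and at 35.5 and 135.

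The genes most like the 3 members with the most UMIs were sought over 8 groups of cells, the parts of each gate with and without *TFAP2A* or *CER1* on each day, among 7691 others. Pearson's r of log2(CPM + 1) with *FZD5* was 0.998 for *MAP1LC3B* and 0.996 for *PAK2*, followed by *PHF10*. The correlation ignores the size of a difference, and *MAP1LC3B* ran from 71.6 to 124 CPM where *FZD5* ran from 23.1 to 981. *FZD7* was most like *PPP2CB*, *PFDN1* and *ARRB1*, and *FZD3* most like *AKIRIN1*, *SET* and *PABPC1*. With 8 groups of 2 libraries and depths that differ between the gates, these values are a description.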

How the data were processed

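The authors counted UMIs per gene and cell with Cell Ranger 6.0.1, per the file headers, on the human genome build hg38, per the processing notes of the submitters, and deposited raw counts for 10943 cells at D4 and 11483 at D6, with 151712246 and 150320228 UMIs. Aggregates were pooled, and 7 bisulfite libraries were not analysed here. The cell limits follow the methods of the study. Counts were summed over the cells of a gate and divided by all UMIs of the gate. Intervals are exact Poisson intervals for levels, exact binomial (Clopper-Pearson) intervals for shares and exact conditional binomial intervals for ratios. They cover counting error only. A count of 0 was put at 3 counts and called only in the direction of the 0, a rule added after member counts had been seen. Thinned shares are expected values over draws without replacement, and members per cell come from 1 seeded draw. Python 3.11.15, numpy 2.4.6, scipy 1.17.1 and pandas 2.3.3 were used, and the scripts were tested on simulated data. The members, gates and lists were chosen with earlier results of these data known. Beyond the members, the text names at most 4 genes per pathway list, the most abundant of those called the same way on both days and at 20 CPM or more, and the 3 genes most like each of the 3 members with most UMIs. *WNT3*, *WNT9B*, *WNT11*, *LRP5*, *LRP6*, *RNF43*, *ZNRF3*, *AXIN2*, *NKD1*, *TNFRSF19* and *FZD4-DT* were named after their values were seen. The alternatives changed the gates, cell filter, depth limit, scaling, UMI minimum, cycling cells and the *TFAP2A* and *CER1* limits.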

Additional observations from a re-analysis of the deposited data

Results flagged for a closer look

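Between the days, 2 members went in opposite directions in the 2 gates. The log2 ratio of *FZD1*, D6 over D4, was 0.59 [0.23, 0.96] in the embryonic gate and −0.47 [−0.85, −0.10] in the hypoblast gate. That of *FZD7* was −0.062 [−0.12, −0.0019] and 0.72 [0.67, 0.77]. With 1 library for each day, neither difference between the gates was tested. Signal was also seen in a set of kept cells that was chosen without regard to the gates, so that some may lie in one, and that no comparison used as a group. In the 77 kept cells of D6 with at least 3 UMIs of *HAND1* and none of *TFAP2A* or *SOX17*, *FZD2* was at 87.7 [71.0, 107] CPM, above its level in each of the 4 gates of that day, of which the highest was 36.2 [31.2, 41.8] in TFAP2A+ cells.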

How the results depend on the processing

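Of the recomputed counts of members called, 74 stayed within 1.5 times the count given and 14 did not. A count can stay while the members called differ. In CER1+ cells of D6 with *LEFTY1* in place of *CER1*, the count stayed at 1, but *FZD5* was called and *FZD2* was not. The counts that stayed include every count between the embryonic and hypoblast gates. *FZD2*, *FZD4* and *FZD5* were called there under all 12 settings on both days. In TFAP2A+ cells at D4, 1 member was called. The count was 2 with gates on UMIs scaled to a fixed depth per cell, 0 without a cell filter, 0 with at most 5% mitochondrial UMIs, 0 in cells with no *TOP2A* UMI, 0 with *TFAP2A* at 1 UMI and 2 at 4. At D6 it was 1 in cells with no *TOP2A* UMI and 1 with *TFAP2A* at 4 UMIs. In CER1+ cells the count went at D4 from 3 to 1 with *CER1* at 1 UMI, and at D6 from 1 to 2 with an upper limit of 20000 UMIs, 2 with *CER1* at 1 UMI, 3 with *CER1* at 5 and 0 without *HAND1* or *MESP1* UMIs, the last added after seeing the data. In the hypoblast gate D6 over D4 went from 0 to 1, *FZD5*, with at most 5% mitochondrial UMIs. The causes were not tested. Called ratios reversed in 2 cases. *FZD1* in TFAP2A+ cells of D4, with 1 UMI in the main gate, had a log2 ratio of 0.36 without a cell filter. *FZD2* in CER1+ cells of D6 had −0.089 with *LEFTY1* in place of *CER1*. Of the other recomputed member ratios, 36 left the interval of the value given upward and 50 downward. Of recomputed levels, 65 left it upward and 47 downward. Thinning lowered 71 of 80 shares below theirs.
No paired analysis was possible because each day is 1 library and the columns carry no replicate numbers. No library could be left out. Depth limits *FZD1*, *FZD9* and *FZD10*, and all members in the 81 TFAP2A+ cells of D4 and the 116 CER1+ cells of D6.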
